A study of Homo sapiens with 2 samples.

Results

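The plasminogen activation system was examined through 6 genes in untreated cells of 2 human lines of prostate cancer, RC77 T/E and MDA PCa 2b: the urokinase gene PLAU, the tissue activator gene PLAT, the urokinase receptor gene PLAUR, the inhibitor genes SERPINE2 and SERPINB2, and the annexin gene ANXA2. The genes were taken by their symbols, and the 6 were found at 1 locus each among the 21382 genes of the deposited table. MDA PCa 2b is an established line of prostate cancer that was grown in a serum-containing F-12 medium with cholera toxin, epidermal growth factor, hydrocortisone and insulin. RC77 T/E is an immortalised line from prostate tumor tissue that was grown in a keratinocyte medium with epidermal growth factor and pituitary extract. Neither line was treated, and total RNA was made into 1 directional, paired-end library per line. With 1 library per line no difference has a replicate check, no test across libraries was made, and cell line, medium and library cannot be told apart.

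Plasminogen is an inactive protease precursor that circulates in blood. The serine proteases urokinase and tissue plasminogen activator cut it into plasmin, which degrades fibrin and extracellular matrix and activates further proteases. The urokinase receptor concentrates urokinase on the cell surface, annexin A2 binds plasminogen and tissue activator there together with its partner S100A10, and serpins trap the activators in covalent complexes. In epithelial tumors the system is known for its part in invasion and tissue remodelling.

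Expression is given in TPM, transcripts of a gene relative to all transcripts of the library after allowing for length. Many values from 1 TPM upward had lost their decimal mark in the deposited table, and the mark was put back from the authors' mean and standard error, which had to come out as listed. This left 1 position for the values of all 6 genes. Where it left several positions for another gene, the lowest and highest values are given and the mark is called open. TPM keeps no read counts, so the depth is unknown and values near 0 have no limit of detection.

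The 6 genes stood at a higher level in the RC77 T/E library. All 6 reached 1 TPM there, beside 11286 of all 21382 genes. In MDA PCa 2b 1 of the 6, ANXA2, did so, beside 10607 of all genes. Relative to the median of all genes with a mean of 1 TPM or higher, which lay at a log2 ratio of -0.15, the 6 differences ran from 5.10 to 8.25. On the log2 scale of TPM plus a pseudocount of 1, the difference of RC77 T/E from MDA PCa 2b was at least 2-fold for 6 of 6 genes, and 0 of 6 differed that far toward MDA PCa 2b. Among the 11624 genes whose mean reached 1 TPM, called expressed here, the share at least 2-fold higher was 19.4% toward RC77 T/E and 20.0% toward MDA PCa 2b. Of the genes past 2-fold, 49.2% were on the RC77 T/E side, or 57.5% with the ratios centred on their median. On the same scale a difference of at least 32-fold, a size chosen after the values were seen, was reached by 5 of the 6 genes, PLAT being just under it, and by 1.69% of the expressed genes, or 3.17% at the highest positions of open marks, where 5 of the 6 genes are past it as well. With the ratios centred on their median, 6 of 6 genes were past it, beside 211 expressed genes in place of 196. With the libraries scaled to their upper quartiles, 6 of 6 were past it, beside 207 expressed genes. A pseudocount of 0.1 TPM put 6 of 6 past it, beside 631 expressed genes. The median log2 ratio of the 6 genes was 5.55. Since 5 of the 6 passed the filter on the mean only through RC77 T/E, these counts describe the genes and are no independent support. Of the 11286 genes that reached 1 TPM in RC77 T/E, 1519 genes, or 13.5%, were under 1 TPM in MDA PCa 2b, and the 5 genes other than ANXA2 are among them.

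**Figure D1:**
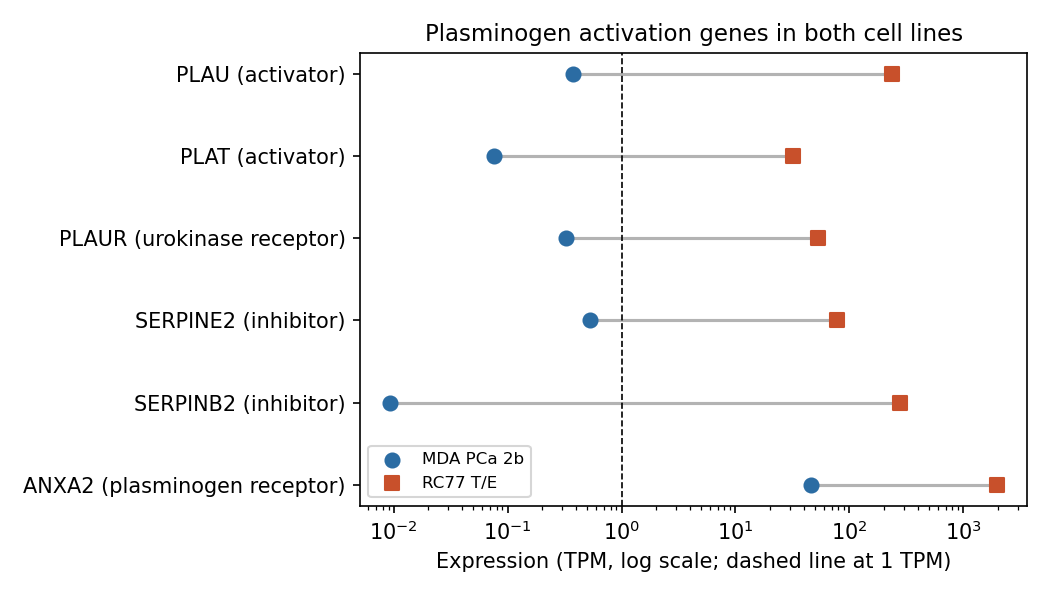
Expression of the 6 plasminogen activation genes in MDA PCa 2b (circles) and RC77 T/E (squares), 1 library each, on a log axis in TPM. The circles of 5 genes lie left of the dashed line at 1 TPM, and the squares lie between 32.2 and 1985 TPM.

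Urokinase, the product of PLAU (ENSG00000122861, chromosome 10 of GRCh38, 73909177 to 73917496), is the activator that the urokinase receptor concentrates on the cell surface. PLAU was at 0.373 TPM in MDA PCa 2b compared with 236 TPM in RC77 T/E, a ratio of 632, and its log2 ratio with a pseudocount of 1 TPM was 7.43. In MDA PCa 2b, 11517 genes had a higher TPM than PLAU, so it stood below the 10607 genes that reached 1 TPM. PLAU overlaps C10orf55 on the opposite strand. That gene was near 0 in MDA PCa 2b, while RC77 T/E cells had between 3.18 and 318.1 TPM of it, with an open mark. Whether the deposited values use the strand of the reads is not stated in the sources used here, so the share of C10orf55 in the PLAU value, and the reverse, was not tested.

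PLAT (ENSG00000104368, chromosome 8, 42174718 to 42207709) encodes tissue plasminogen activator, the activator best known for dissolving fibrin clots. It was the lowest of the 6 genes in RC77 T/E cells, at 32.2 TPM, and was at 0.0764 TPM in MDA PCa 2b. The ratio of the TPM values was 422, and the log2 ratio was 4.95. PLAT overlaps no other annotated gene. PLAU was the higher of the activators in both lines, by 4.88 times in MDA PCa 2b compared with 7.31 times in RC77 T/E.

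PLAUR (ENSG00000011422, chromosome 19, 43646095 to 43670547) encodes the urokinase receptor, which is held to the membrane by a lipid anchor. The receptor gene was at 0.329 TPM in MDA PCa 2b against 52.9 TPM in RC77 T/E, a ratio of 161 and a log2 ratio of 5.34. The ligand and its receptor were at similar levels in MDA PCa 2b, with 1.14 PLAU transcripts per PLAUR transcript, while RC77 T/E cells had 4.45. A short RNA gene, RN7SL368P, lies within PLAUR on the same strand and was not analysed here.

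The serpins form the inhibitory side. SERPINE2 (ENSG00000135919, chromosome 2, 223975045 to 224039318) encodes protease nexin, which blocks thrombin, urokinase and tissue activator near the cell surface. MDA PCa 2b cells had 0.523 TPM of it, the second highest level of the 6 genes there, against 77.8 TPM in RC77 T/E. The ratio was 149, and the log2 ratio was 5.69. SERPINE2 overlaps no other annotated gene.

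SERPINB2 (ENSG00000197632, chromosome 18, 63871692 to 63903888) encodes plasminogen activator inhibitor type 2, a largely intracellular serpin that is abundant in squamous epithelia and activated monocytes. It had the lowest value of the 6 genes in MDA PCa 2b, 0.00936 TPM, and the second highest in RC77 T/E cells, 276 TPM. The ratio of these values was 29450.2, but its denominator lies so near 0 that its size cannot be read closely. On the log2 scale the difference was 8.10 with a pseudocount of 1 TPM and 11.30 with 0.1 TPM. Between 49 and 138 expressed genes had a larger log2 ratio, depending on the open marks of other genes. SERPINB10, the neighboring serpin gene that overlaps SERPINB2 on the same strand, is listed at 0 for MDA PCa 2b and was at 0.530 TPM in the RC77 T/E library.

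ANXA2 (ENSG00000182718, chromosome 15, 60347134 to 60402883) encodes a calcium-dependent membrane-binding protein. It was the highest of the 6 genes in both lines, at 45.6 TPM in MDA PCa 2b against 1985 TPM in RC77 T/E cells. Of all genes, 61 had a higher TPM in RC77 T/E cells, at the lowest and at the highest positions of open marks alike, whereas in MDA PCa 2b between 819 and 6338 genes did, depending on those marks. The RC77 T/E level was 43.5 times that of MDA PCa 2b, the smallest ratio of TPM values among the 6 genes, and the log2 ratio was 5.41. ANXA2 made up 97.2% of the summed TPM of the 6 genes in MDA PCa 2b compared with 74.6% in RC77 T/E. It has processed pseudogenes that could share reads with it. In the reference transcripts, 59.2% of the 50-base windows of ANXA2P2 occur unchanged in ANXA2, beside 8.10% for ANXA2P1 and 0.730% for ANXA2P3. ANXA2P2 was at 0.0748 TPM in MDA PCa 2b against 3.30 TPM in RC77 T/E cells, which is 0.164% and 0.166% of the ANXA2 value. ANXA2P1 and ANXA2P3 stayed under 0.1 TPM in both lines. How the authors divided reads between such copies is not stated in the sources used here. A further pseudogene, AC087385.1, overlaps ANXA2 on the opposite strand and was not analysed here.

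**Figure D2:**
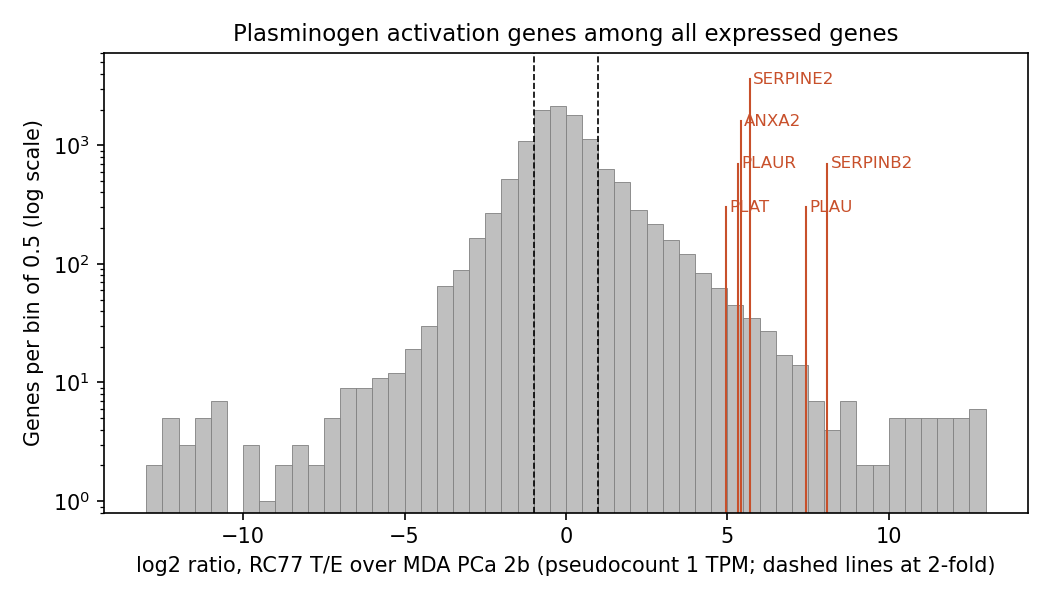
Number of expressed genes (log axis) by log2 ratio of RC77 T/E over MDA PCa 2b, 1 TPM added to each, and the 6 plasminogen activation genes as vertical lines whose heights carry no value. All 6 lines lie right of the dashed line for 2-fold, from 4.95 for PLAT to 8.10 for SERPINB2.

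The order of the 6 genes differed between the lines. In MDA PCa 2b it ran from ANXA2 through SERPINE2, PLAU, PLAUR and PLAT down to SERPINB2. In RC77 T/E it ran from ANXA2 through SERPINB2, PLAU, SERPINE2 and PLAUR down to PLAT. With no replicate, whether neighbors in these orders differ beyond the spread between libraries is unknown, and SERPINB2 and PLAU in RC77 T/E, at 276 and 236 TPM, have the smallest ratio of any neighbors there, 1.17.

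Ratios between genes of 1 library do not depend on how that library was scaled. SERPINB2 was at 0.0251 of the PLAU level in MDA PCa 2b compared with 1.17 times that level in RC77 T/E. Against SERPINE2 it stood at 0.0179 and at 3.54 times. The inhibitors SERPINE2 and SERPINB2 together were at 1.19 times the sum of PLAU and PLAT in MDA PCa 2b. In RC77 T/E they were at 1.32 times that sum. Most of the inhibitor level counted was SERPINE2 in MDA PCa 2b and SERPINB2 in RC77 T/E. This ratio was close in both lines, but it leaves out other inhibitors. Among them SERPINI1, which encodes the tissue activator inhibitor neuroserpin, has an open mark. In MDA PCa 2b SERPINI1 was at 6.96 or 69.6 TPM, above the 0.533 TPM of SERPINE2 and SERPINB2 together. In RC77 T/E it was at 11.1 or 110.6 TPM, below their 354 TPM. The closeness therefore holds for the inhibitors counted and was not tested for the inhibitors as a whole. ANXA2 exceeded PLAU by 122 times in MDA PCa 2b compared with 8.42 times in RC77 T/E. The MDA PCa 2b ratios other than those with ANXA2 rest on values under 1 TPM in both genes.

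**Figure D3:**
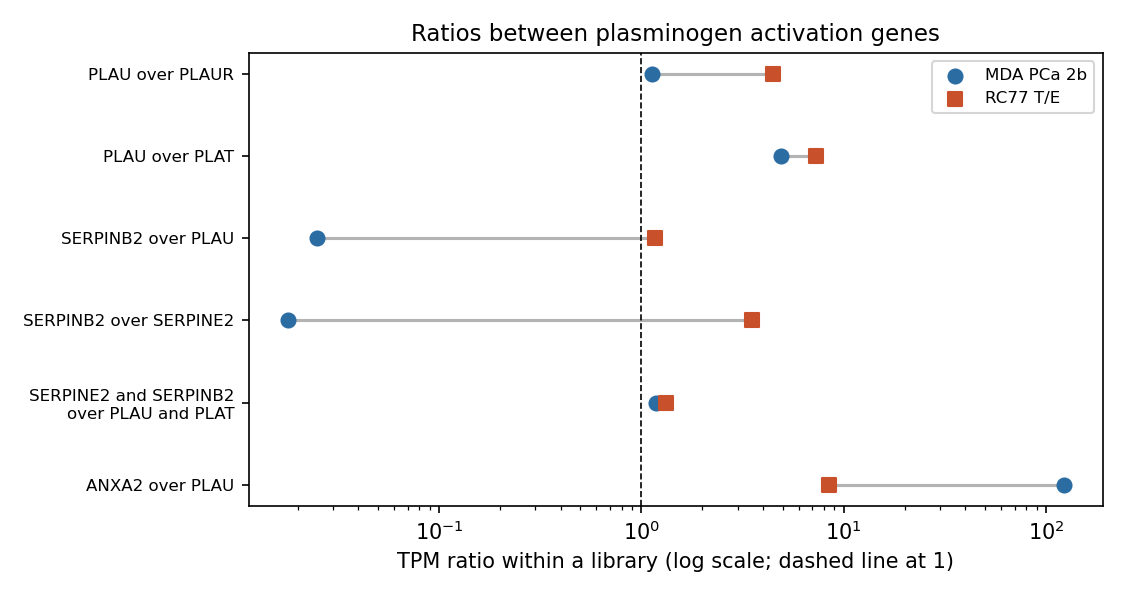
TPM ratios between plasminogen activation genes within MDA PCa 2b (circles) and RC77 T/E (squares), on a log axis with a dashed line at 1. The ratio of SERPINE2 and SERPINB2 to PLAU and PLAT lies at 1.19 and 1.32, while SERPINB2 over PLAU runs from 0.0251 to 1.17. Other inhibitors, such as SERPINI1, are not counted.

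Sequences upstream of the genes are shown because the 6 genes differ in the same direction. The RefSeq table of promoters used here, on GRCh38.p14, holds 7 windows of 300 bases for 5 of the genes, each from 250 bases before to 50 bases after a transcript start, and none for PLAT. Each window was searched on both strands for TGANTCA, the letters bound by AP-1, the JUN and FOS factor, where N is any base, for TATAAA, the TATA box, for CCAAT, the CCAAT box, and for GGGCGG, the GC box. The AP-1 and TATA letters do not overlap in the windows. TGANTCA was in 3 of the 7 windows, those of PLAUR, SERPINB2 and ANXA2, beside 7.71% of the 35116 windows of all genes. TATAAA was in 2, those of SERPINB2 and ANXA2, beside 11.5%. CCAAT was in 2 of the 7 windows, beside 34.6%, and GGGCGG in 4 of the 7, beside 45.0%. The windows of these genes and, for contrast, the PLAU window with the most annotated transcript starts are given 5′ to 3′ on the strand of the gene, with the AP-1 and TATA letters in capitals.
PLAUR, chr19:43670120-43670419, minus strand: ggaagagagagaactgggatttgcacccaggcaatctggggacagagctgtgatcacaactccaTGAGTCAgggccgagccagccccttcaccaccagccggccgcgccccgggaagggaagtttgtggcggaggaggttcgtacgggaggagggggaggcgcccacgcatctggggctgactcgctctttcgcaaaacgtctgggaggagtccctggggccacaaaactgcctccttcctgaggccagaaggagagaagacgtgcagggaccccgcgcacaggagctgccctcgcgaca
SERPINB2, chr18:63887455-63887754, plus strand: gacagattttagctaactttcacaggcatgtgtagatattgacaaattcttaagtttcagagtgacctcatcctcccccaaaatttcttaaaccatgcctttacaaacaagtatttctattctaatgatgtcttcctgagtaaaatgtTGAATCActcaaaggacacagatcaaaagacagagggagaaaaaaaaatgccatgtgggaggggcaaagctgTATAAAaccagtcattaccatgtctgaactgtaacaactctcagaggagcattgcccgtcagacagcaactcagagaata
ANXA2, chr15:60397937-60398236, minus strand: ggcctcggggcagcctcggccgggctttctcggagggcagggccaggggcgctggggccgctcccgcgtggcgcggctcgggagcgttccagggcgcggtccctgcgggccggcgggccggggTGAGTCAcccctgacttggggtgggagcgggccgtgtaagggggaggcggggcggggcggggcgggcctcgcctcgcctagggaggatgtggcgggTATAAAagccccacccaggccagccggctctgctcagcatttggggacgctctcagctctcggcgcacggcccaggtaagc
PLAU, chr10:73910882-73911181, plus strand: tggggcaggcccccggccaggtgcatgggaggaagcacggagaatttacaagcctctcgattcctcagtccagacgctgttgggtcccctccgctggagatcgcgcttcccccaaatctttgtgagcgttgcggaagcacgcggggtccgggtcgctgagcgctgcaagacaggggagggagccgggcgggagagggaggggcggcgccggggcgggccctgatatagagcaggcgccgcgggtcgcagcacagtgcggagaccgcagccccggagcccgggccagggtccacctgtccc
The AP-1 letters begin 186 bases before the start in PLAUR, as TGAGTCA, 102 bases before it in SERPINB2, as TGAATCA, and 127 bases before it in ANXA2, as TGAGTCA. The TATA letters begin 30 bases before the start of SERPINB2 and 31 bases before that of ANXA2. Neither window of PLAU and neither window of SERPINE2 holds TGANTCA or TATAAA. The windows also differ in composition, from 39.0% G and C in SERPINB2 to 76.0% in ANXA2, beside a median of 58.7% over all windows. A match is a run of letters and was not tested as a site, and the motifs were chosen with the values known.

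Of 29 further genes of the pathway, 19 reached 1 TPM in MDA PCa 2b, beside 10607 of all 21382 genes. In RC77 T/E 21 of the 29 did so, beside 11286 of all genes. Of the 22 whose mean reached 1 TPM, 9 were higher by 2-fold or more on the RC77 T/E side and 1, HPN, on the MDA PCa 2b side (10 and 1 at the highest positions of open marks), beside the 19.4% and 20.0% of all expressed genes. Their median log2 ratio was 0.54. The substrate of the system was nearly without transcript: PLG, which encodes plasminogen, was at 0.00345 TPM in MDA PCa 2b compared with 0.0359 TPM in RC77 T/E cells. VTN, which encodes the matrix protein vitronectin, was at 0.0255 TPM and listed at 0.

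Among the 8 further inhibitors, 5 had a mean of at least 1 TPM. Of these 5, 1 differed by 2-fold or more toward RC77 T/E, beside 19.4% of all expressed genes. This was SERPINF2, which encodes the plasmin inhibitor antiplasmin, at 0.116 and 2.11 TPM, where here and in what follows MDA PCa 2b is given first. The hepatocyte growth factor activator inhibitors SPINT1 and SPINT2 were near equal in both lines, at 136 and 133 TPM and at 438 and 536 TPM. SERPINI1, which encodes the tissue activator inhibitor neuroserpin, and SERPINB6 differed by less than 2-fold and have open marks, SERPINI1 at 6.96 and 11.1 TPM or at 69.6 and 110.6 TPM and SERPINB6 at 65.3 and 51.0 TPM or at 653 and 509.7 TPM. A2M and CPB2 stayed under 0.1 TPM in both lines, and SERPINA5 is listed at 0 in both.

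Of the 5 genes for proteases that can activate pro-urokinase or act near it, HPN, which encodes the membrane protease hepsin, was between 10.4 and 104.0 TPM in MDA PCa 2b, with an open mark, whereas RC77 T/E has it listed at 0. CTSB, which encodes cathepsin B, was at 4.81 and 23.3 TPM at the lowest position of its open mark and at 48.1 and 233 TPM at the highest, a ratio of 4.85 toward RC77 T/E at either. ST14, which encodes matriptase, also has an open mark and was at 12.2 and 7.35 TPM or at 122 and 73.5 TPM, a ratio of 1.66 toward MDA PCa 2b. CTSL, which encodes cathepsin L, was at 51.4 and 63.0 TPM with a settled mark. PRSS8, a membrane-anchored protease gene with an open mark, was at 75.9 and 95.3 TPM or at 759 and 953 TPM, a ratio of 1.25 toward RC77 T/E. The 5 genes of this group did not share a direction.

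S100A10, whose product pairs with annexin A2 and binds plasminogen, differed by 20.4 times toward RC77 T/E, at 2.43 or 24.3 TPM in MDA PCa 2b against 49.6 or 496 TPM in RC77 T/E, with an open mark. The other plasminogen receptor genes differed less, and both have open marks. ENO1, which encodes the glycolytic enzyme enolase, was at 5.34 and 7.84 TPM or at 534 and 784 TPM, a ratio of 1.47, and PLGRKT was at 18.7 and 24.2 TPM or at 187 and 242 TPM, a ratio of 1.30. Among the receptors that clear activator and inhibitor complexes, LRP1 was at 0.714 and 17.6 TPM. VLDLR was at 6.86 and 7.74 TPM, and LRP2 was near 0 in both lines. LRPAP1, which encodes a chaperone of this receptor family, was at 22.7 and 13.5 TPM. MRC2, which encodes a collagen receptor that associates with the urokinase receptor, was at 0.0856 and 43.7 TPM. The urokinase receptor has no cytoplasmic part and signals through partners such as integrins. Of these ITGA5 has a settled mark and was at 3.63 and 127.8 TPM, a ratio of 35.2 toward RC77 T/E. The marks of the other integrin genes and EGFR are open. ITGA3 was at 1.02 and 39.7 TPM or at 10.2 and 397 TPM, a ratio of 39.0, and ITGB1 at 7.62 and 64.1 TPM or at 76.2 and 641 TPM, a ratio of 8.42. EGFR, a growth factor receptor gene, was at 1.38 and 9.75 TPM or at 13.8 and 97.5 TPM, a ratio of 7.08. ITGAV was at 2.92 and 6.84 TPM or at 29.2 and 68.4 TPM, and its log2 ratio with a pseudocount of 1 TPM was 1.00, just under 2-fold, at the lowest position and past 2-fold at the highest. FPR1 was under 0.1 TPM in both lines.

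**Figure D4:**
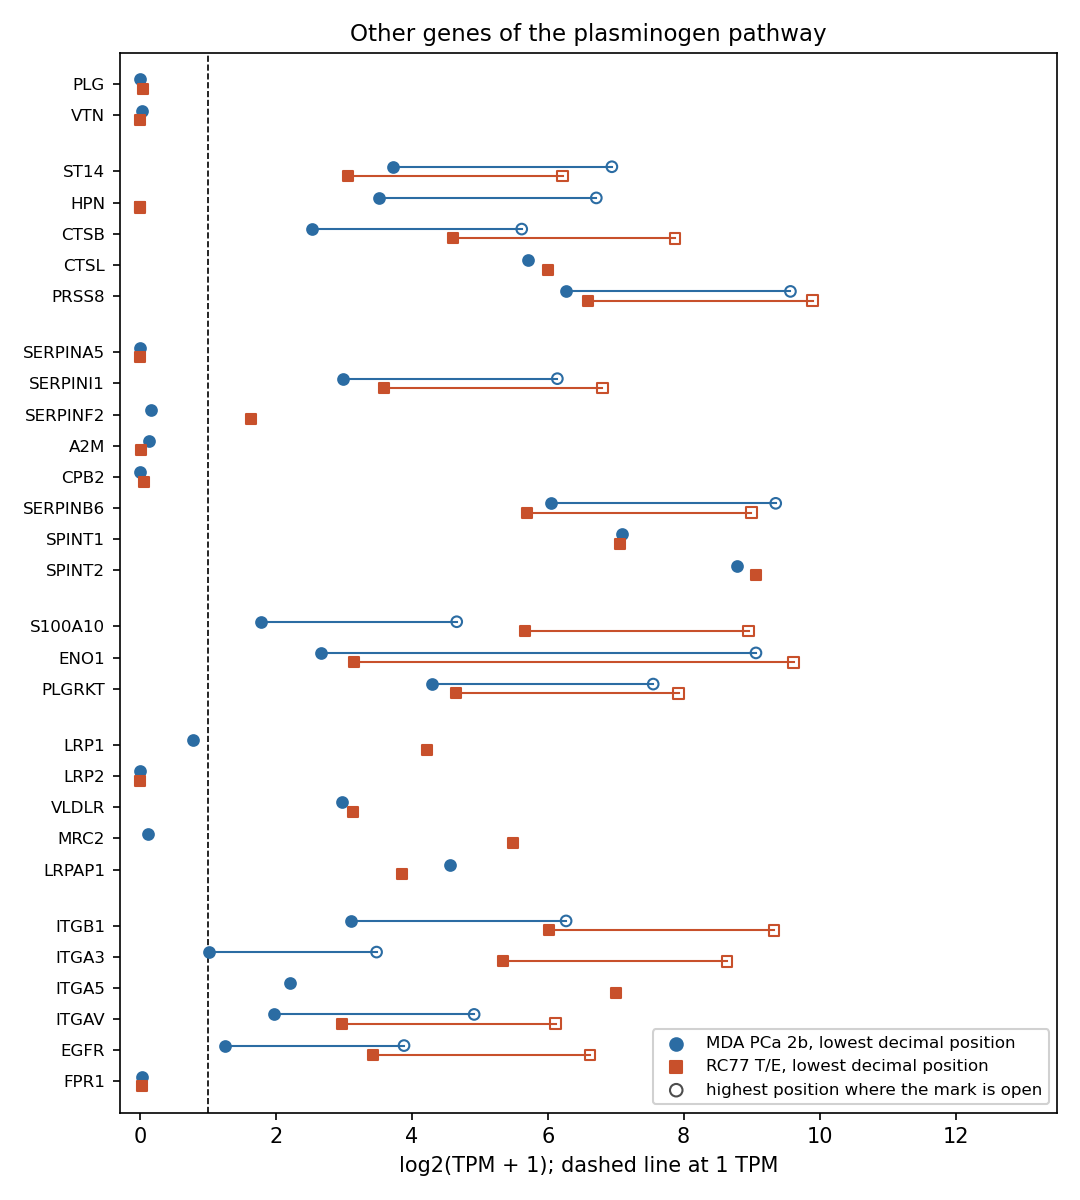
Levels of 29 further pathway genes as log2 of TPM plus 1 in MDA PCa 2b (circles) and RC77 T/E (squares), grouped by role from proenzyme to receptor partners; where the mark is open, a line joins the lowest and the highest position (open symbols). Among genes with a settled mark MRC2 shows the widest gap, at 0.0856 and 43.7 TPM, and PLG lies near 0 in both lines.

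Markers of cell type differed between the lines along with these genes. Of 6 luminal prostate markers, 6 reached 1 TPM in MDA PCa 2b compared with 3 in RC77 T/E, where KLK3 and KLK2 are listed at 0 and TMPRSS2 was at 0.108 TPM. The keratin genes among them were near equal in both lines, KRT18 at 320.5 and 325 TPM and KRT8, with an open mark, at 39.1 and 31.8 TPM or at 391 and 318 TPM. The 6 summed to between 6408 and 7323 TPM in MDA PCa 2b, while RC77 T/E cells had between 358 and 645 TPM of them. Of 6 basal markers, 3 reached 1 TPM in MDA PCa 2b against 6 in RC77 T/E, and the 6 summed to 44.6 TPM in MDA PCa 2b while RC77 T/E cells had between 9723 and 9770.0 TPM of them. The 5 platelet markers summed to 0.285 and 1.07 TPM, with PF4 and GP9 listed at 0 in both lines, and the 4 endothelial markers to 0.214 and 0.0280 TPM. The 5 fibroblast markers summed to 2.73 and 9.16 TPM, with COL1A1 at 8.24 TPM in RC77 T/E and COL3A1 and LUM listed at 0 there. Of the 5 monocyte and macrophage markers, CD68 was at 37.9 TPM and CD14 at 4.92 TPM in RC77 T/E, where PTPRC and LYZ are listed at 0. The part of cell type in the differences of the 6 genes was not tested.

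Protein-coding genes with the most similar pair of levels, by distance over log2 of TPM plus 1 in the 2 libraries and among 11160 genes with 1 decimal position, were TUBB6 and GAS6 for PLAU, EGR1 and TFPI2 for PLAUR, B3GNT3 and CRIM1 for PLAT, HAS3 for SERPINE2, MMP9 and IFI27 for SERPINB2, and TMSB4X and KRT14 for ANXA2. The nearest was B3GNT3 to PLAT, at a distance of 0.0270, and MMP9 lay 0.0781 from SERPINB2, at 0.0510 TPM in MDA PCa 2b against 266 TPM in RC77 T/E. KRT14 was the farthest of these, 0.766 from ANXA2. A likeness over 2 libraries is a pair of similar levels and no more.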

How the data were processed

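The authors isolated total RNA, sequenced 1 library per cell line and deposited TPM per locus with the mean and standard error of both lines. Per the labels, the processing notes name CASAVA, FastQC 0.11.9, Trimmomatic 0.38, Salmon 1.2.0 and GRCh38. The annotation release is not given in the sources used here. The design assumed plain TPM, and in the deposited values the decimal mark was restored first. Marks were tried after the first 1 to 3 digits with no fewer than 3 following, and kept where the deposited mean and standard error came out as written. Of 22704 loci, 16212 had 1 position. In 5000 simulated rows, 4052 had 1 position, the true one in 4052. These rows were written by the rules assumed for the deposited values, so they check the code and not those rules. For open marks the lowest position was used. A repeated locus was used once, and loci of a symbol were summed. No tests were run. Overlaps come from GENCODE release 29 and promoters from RefSeq.

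The members and lists were chosen with earlier results of these data known. Genes named are the 6 members, the pathway and marker lists, overlapping genes, ANXA2 pseudogenes and the 2 nearest genes per member. A few list genes and 1 nearest gene are not reported, and the counts over lists exclude them. Alternatives were another pseudocount, threshold, scaling, locus rule, filter and decimal position. Python 3.11.15, numpy 2.4.6 and matplotlib 3.10.9 were used.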

Additional observations from a re-analysis of the deposited data

How the results depend on the processing

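Of 86 values recomputed under alternative settings, 76 stayed within 1.5 times of the value reported, log2 ratios compared as ratios, and 0 single values changed direction. The balance of 2-fold differences among expressed genes did turn, from 2250 toward RC77 T/E against 2324 toward MDA PCa 2b to 2542 against 1880 when centred on the median and 2509 against 1922 when scaled to the upper quartile. The log2 ratios of the 6 genes ranged from 4.95 to 11.30 over all settings, with 6 of 6 past 2-fold toward RC77 T/E in each. With a pseudocount of 0.1 TPM the log2 ratio was 11.30 for SERPINB2, 8.96 for PLAU, 7.52 for PLAT, 6.97 for SERPINE2 and 6.95 for PLAUR, which follows from their levels under 1 TPM in MDA PCa 2b. Past 32-fold toward RC77 T/E were 631 expressed genes with that pseudocount and 369 at the highest decimal positions, in place of 196. A threshold of 0.5 TPM counted 2 of the 6 genes in MDA PCa 2b. At the highest decimal positions ANXA2 over S100A10 was 1.88 in MDA PCa 2b against 4.0 in RC77 T/E, in place of 18.8 and 40.0, because the mark of S100A10 is open. No paired analysis was possible because there is 1 library for each line. Depth is unknown, so values under 1 TPM, on which 5 of the 6 ratios rest, carry an error of unknown size.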
